A study of Rattus norvegicus with 109 samples.

Results

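Normotensive Wistar Kyoto (WKY) rats that received inhibitors of miR-135a and miR-376a were compared with WKY rats that received a scrambled oligonucleotide, for RNA of 19 genes in the NTS (nucleus of the solitary tract). The comparison used every NTS section labelled WKY with the treatment Cocktail or Scrambled, 42 of the 109 sections of the series. The Cocktail group had 27 sections from 4 rats and the Scrambled group had 15 sections from 5 rats. Cocktail rats were given 25 uL of a 1:1 mix of both locked nucleic acid inhibitors at 10 uM in artificial cerebrospinal fluid. Scrambled rats were given a locked nucleic acid matching no known microRNA or transcript. Its dose, the injection site and the ages of the rats were not given in the sources used here, beyond the statement that the strains were age-matched. The remaining sections came from WKY rats with sham surgery (an empty needle in the cannula) and from spontaneously hypertensive rats (SHR). In the limma test between Cocktail and Scrambled, those rats entered only through the shared estimate of the spread between rats. Sections were cut by laser capture under DAPI and NeuN signal, and each was run as a sample of its own in quantitative PCR with 30 cycles.

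The NTS is the brainstem nucleus where nerve fibres from arterial baroreceptors end, and its neurons set sympathetic outflow and blood pressure. A microRNA lowers the output of messenger RNAs that pair with its seed, the bases from position 2 to position 8, and a locked nucleic acid inhibitor binds the mature microRNA and keeps it from its targets. The measured genes belong to systems known to act in this nucleus, namely angiotensin and catecholamine signalling, cytokines, leukotrienes and prostaglandins, with immediate-early factors that mark recent neuronal activity.

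The mature sequences of the inhibited microRNAs are shown because they are what the Cocktail was made to bind. The labels name each microRNA without its arm, so both arms are given, from RefSeq on the rat assembly GRCr8, with the seed in capitals.
rno-miR-135a-5p: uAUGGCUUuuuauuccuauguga
rno-miR-135a-3p: uGUAGGGAuggaagccaugaaa
rno-miR-376a-5p: gGUAGAUUcuccuucuaugag
rno-miR-376a-3p: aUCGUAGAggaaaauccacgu
The miR-135a arms lie on the minus strand at chr7:28499221-28499243 (5p) and chr7:28499183-28499204 (3p). The miR-376a arms lie on the plus strand at chr6:134559383-134559403 (5p) and chr6:134559421-134559441 (3p). The 4 arms have 4 different seeds. Only miR-135a-5p shared its seed with another of the 724 mature rat microRNAs of the RefSeq table, miR-135b-5p.

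The number of sections per rat was unequal. Cocktail rats 1701, 4607, 4612 and 4614 had 6, 9, 7 and 5 sections. Scrambled rats 1700, 4610, 4614, 4615 and 4618 had 4, 4, 2, 3 and 2 sections. The number 4614 is thus given to sections of both treatments, and the labels do not settle whether this is one animal. Over 18 genes with a value in all 9 rat profiles, those 2 profiles lay 9.52 apart (Euclidean distance, log2 scale), the 34th closest of 36 pairs of rats. Both were kept as separate rats. Scrambled 4614 stood apart from the rest of its group, since the 3 most distant pairs of rats all held it. Values are minus ΔCt (log2): more RNA gives a higher value, and 1 unit is 1 PCR cycle. Each assay has its own efficiency, so levels are compared between rats and not between genes. Section values were averaged within each rat before any test, and n counts rats.

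No transcript passed the test between Cocktail and Scrambled WKY rats. Limma called 0 of 19 genes (0%) at an adjusted p of 0.05, and 0 genes had an unadjusted p under 0.05. An exact permutation test of the rats also called 0 genes, with 0 below 0.05 before adjustment. The design allows no exact p under 0.00794, and a single gene at that p would not pass after adjustment over 19 genes. Several genes at once would have to reach such a p for a call. The ranges of the rats in both groups overlapped for every gene. Of the 19 differences, 10 (52.6%) were above 0. The intervals were wide, and none of the 18 genes reported here had a 95% confidence interval lying wholly between -1 and 1 on the log2 scale. A change of 1 unit in at least one direction thus lay inside each interval. The median width of the intervals was 2.75.

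**Figure D1:**
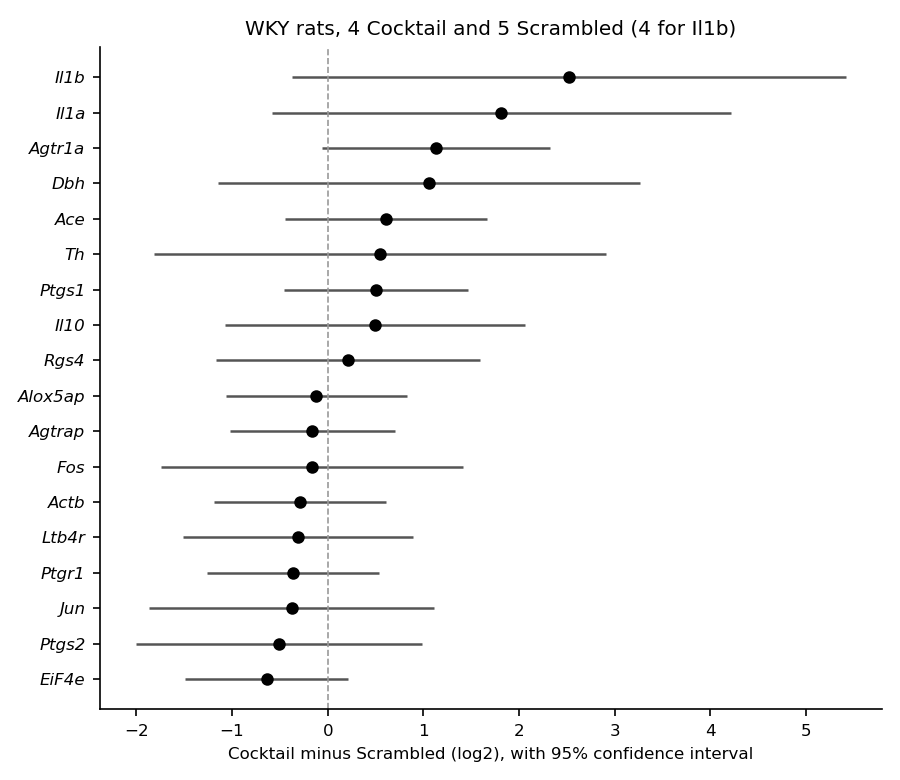
Difference between the mean of the Cocktail rats and the mean of the Scrambled rats for 18 genes, on the log2 scale (x axis), with the 95% confidence interval from limma as a bar; positive values are higher after Cocktail. Every bar crosses 0, from Il1b at 2.52 at the top to EiF4e at -0.64 at the bottom.

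Among the angiotensin genes, Agtr1a had the smallest p of the whole panel. It encodes the type 1 receptor through which angiotensin II acts in the brain. Its level was -1.28, -1.01, -2.18 and -1.35 in Cocktail rats 1701, 4607, 4612 and 4614. It was -4.19, -1.96, -2.59, -2.74 and -1.46 in Scrambled rats 1700, 4610, 4614, 4615 and 4618. All 4 Cocktail rats lay above the Scrambled mean, yet Cocktail 4612 lay below Scrambled 4610 and 4618. The group means were -1.46 ± 0.51 (SD, n = 4) in Cocktail rats, against -2.59 ± 1.03 (SD, n = 5) in Scrambled rats. The log2 difference of 1.13, or 2.19-fold, had an interval from -0.06 to 2.32 and did not pass (limma, adjusted p = 0.631). Without Scrambled rat 1700, the lowest rat of the comparison, it was 0.73, and without 4618, the highest Scrambled rat, it was 1.41. Sham rats, which entered the test only through the shared spread, averaged -2.04 ± 0.35 (SD, n = 3).

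Ace encodes the enzyme that makes angiotensin II. It was at 4.19, 4.38, 4.85 and 2.83 in Cocktail rats 1701, 4607, 4612 and 4614, and at 2.52, 2.80, 3.41, 4.53 and 4.02 in Scrambled rats 1700, 4610, 4614, 4615 and 4618. The low Cocktail rat 4614 held the lowest Ace section of the comparison, WC23 at -3.05, while its other sections were between 3.85 and 4.92. The lowest Scrambled section was WSc01 of rat 1700 at -1.45. The difference in means was 0.61, with an interval from -0.45 to 1.66 (limma, adjusted p = 0.860). It was 1.02 without Cocktail 4614, 0.35 without Cocktail 4612 and 0.37 without Scrambled 1700. Agtrap, whose product binds the type 1 receptor and promotes its internalisation, was at 0.26 ± 0.65 (SD, n = 4) in Cocktail rats, against 0.42 ± 0.45 (SD, n = 5) in Scrambled rats. Its difference was -0.16, with an interval from -1.02 to 0.70. Of the 3 angiotensin genes reported, 0 passed, and their median difference was 0.61, beside a median of 0.15 over all 19 genes.

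The catecholamine genes mark the noradrenergic neurons of the nucleus and were the only cell type markers on the panel. Th, which makes the precursor L-DOPA from tyrosine, had a value in all 42 sections, and Dbh, which makes noradrenaline from dopamine, in 40. Th averaged 3.95 ± 0.82 (SD, n = 4) in Cocktail rats, against 3.41 ± 1.80 (SD, n = 5) in Scrambled rats, a difference of 0.54 with an interval from -1.82 to 2.91. Dbh averaged -0.55 ± 0.66 (SD, n = 4) and -1.61 ± 2.09 (SD, n = 5) in the same groups, a difference of 1.06 with an interval from -1.15 to 3.26. Neither passed. The Dbh difference was 0.53 without Scrambled 1700, 0.54 without Scrambled 4615 and 1.71 without Scrambled 4614, and 0.35 with missing values at the lowest value. The Scrambled rats were the more scattered, with Th at 0.89 in rat 4615 and 5.74 in rat 4614, and Dbh at -3.68 and 0.99 in those rats. In a captured section, fewer cells of a type and less RNA per cell cannot be told apart. Markers of other neurons, astrocytes, microglia, oligodendrocytes and endothelium were not on the panel, so the cell make-up of the groups could not be compared. Rgs4, which shortens signalling through G proteins, averaged 2.70 ± 0.93 (SD, n = 4) in Cocktail rats, against 2.49 ± 0.63 (SD, n = 5) in Scrambled rats, a difference of 0.21 (interval -1.17 to 1.59).

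Among the cytokine genes, Il1b and Il1a had the largest differences of the genes reported and the widest intervals. They encode the 2 forms of interleukin 1, which drive inflammation. Il1a was at -3.67, -2.83, -4.76 and -2.68 in Cocktail rats 1701, 4607, 4612 and 4614, and at -6.04, -4.32, -9.14, -3.47 and -3.53 in Scrambled rats 1700, 4610, 4614, 4615 and 4618. Scrambled 4614 was the lowest rat by a wide margin, and 3 of the other Scrambled rats lay within the Cocktail range. The difference in means was 1.82, with an interval from -0.58 to 4.21 (limma, adjusted p = 0.631), and 0.85 without Scrambled 4614 and 0.59 without both sets of that number. Sham rats, again part of the shared spread only, averaged -1.23 ± 1.10 (SD, n = 3).

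Il1b had a value in only 13 of 27 Cocktail and 9 of 15 Scrambled sections. Its rat means were -7.39, -8.86, -7.79 and -3.33 in Cocktail rats 1701, 4607, 4612 and 4614. They were -10.63, -10.77, -7.71 and -8.36 in Scrambled rats 1700, 4610, 4615 and 4618, and both sections of Scrambled 4614 lacked a value. The high mean of Cocktail 4614 came from 3 sections at -5.89, 2.84 and -6.94. The single section WC25 was thus far above all other sections of both groups, where the next highest value was -5.52. The difference of 2.52 had an interval from -0.37 to 5.42 (limma, adjusted p = 0.631) and was 1.35 without Cocktail 4614. It was 0.63 with gaps filled by the lowest Il1b value of the series, and 0.83 with gaps at 30 cycles. Il10, an anti-inflammatory cytokine, averaged 0.68 ± 0.37 (SD, n = 4) in Cocktail rats, against 0.19 ± 1.91 (SD, n = 5) in Scrambled rats, a difference of 0.49 (interval -1.08 to 2.06). It was -0.17 without Scrambled 1700, whose section WSc01 was at -10.37. All 3 cytokine differences were above 0, and 0 of 3 passed.

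**Figure D2:**
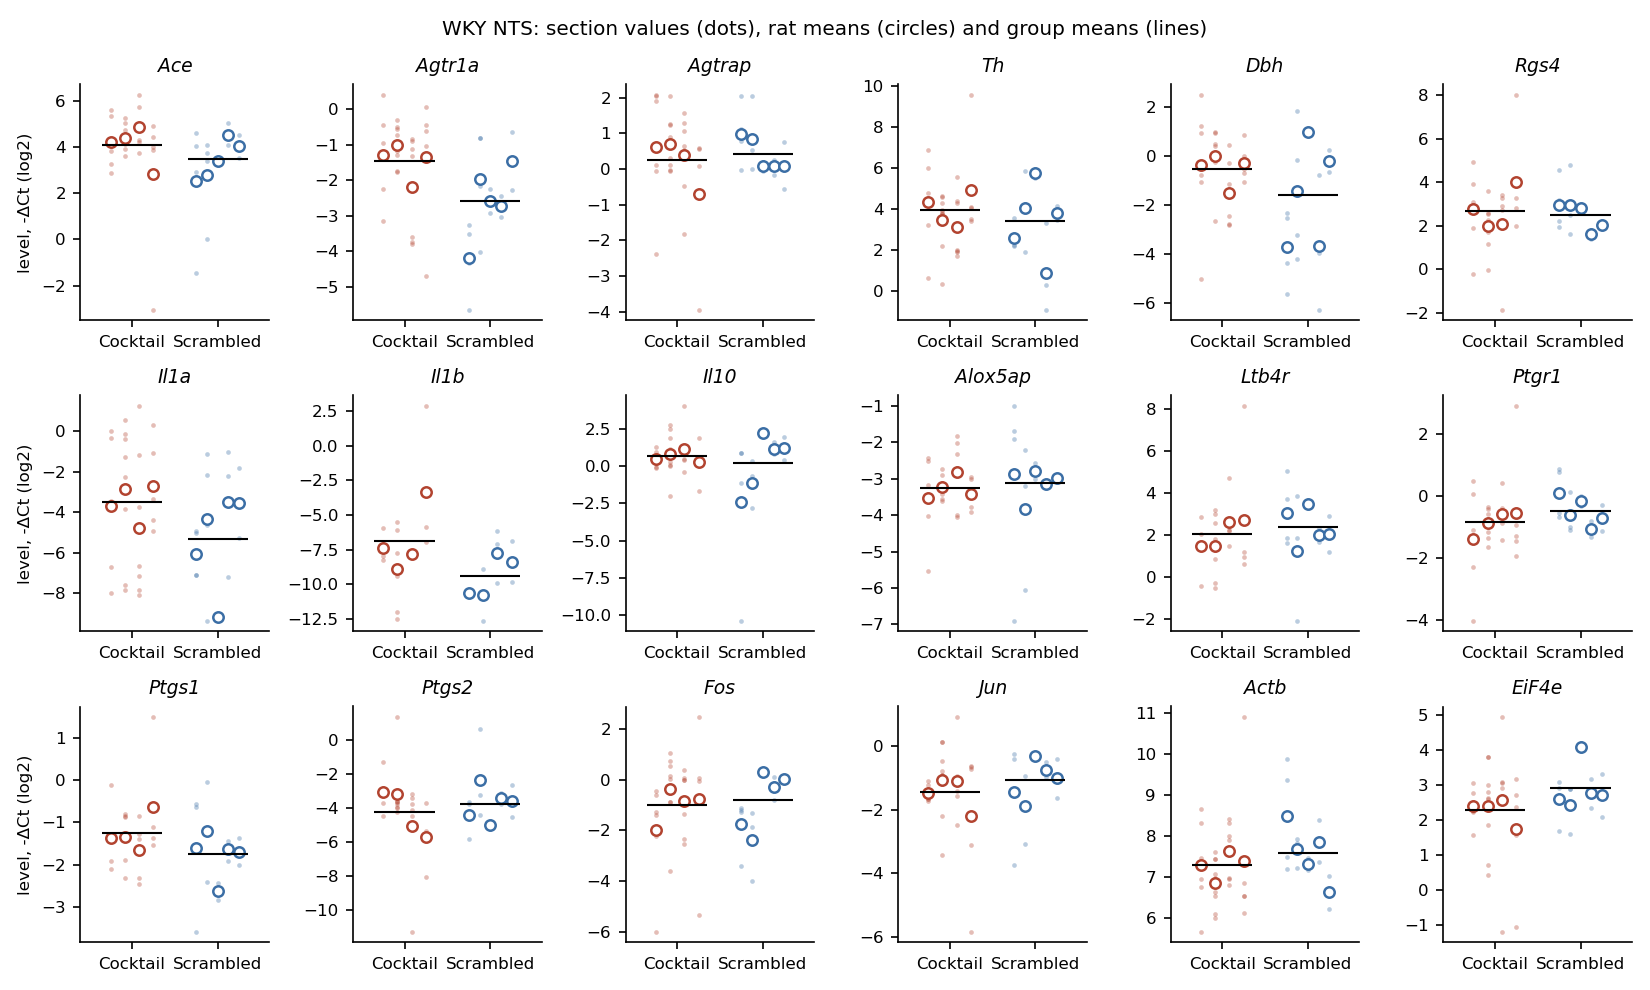
Level as minus ΔCt on the log2 scale (y axis, own range in each panel) for 18 genes in WKY Cocktail and WKY Scrambled. Small dots are sections, circles are rat means in order of animal number and lines are group means. Circles of both groups overlap in every panel, with Scrambled 4614 (middle circle) low for Il1a at -9.14 and high for EiF4e at 4.08.

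The lipid mediator genes showed no difference that passed. Alox5ap presents arachidonic acid to 5-lipoxygenase for leukotriene synthesis, Ltb4r is the receptor of leukotriene B4, and Ptgr1 inactivates leukotriene B4 and prostaglandins. Alox5ap averaged -3.25 ± 0.31 (SD, n = 4) in Cocktail rats, against -3.13 ± 0.42 (SD, n = 5) in Scrambled rats, a difference of -0.12 (interval -1.07 to 0.83). With gaps filled by the gene's lowest value the Alox5ap difference was -0.63, and with gaps at 30 cycles -0.91. Ltb4r averaged 2.07 ± 0.68 and 2.37 ± 0.89 in the same groups and differed by -0.31 (interval -1.51 to 0.90). Ptgr1 averaged -0.86 ± 0.39 and -0.49 ± 0.46 and differed by -0.37 (interval -1.27 to 0.54). None of the 3 passed, and all 3 differences were below 0. The cyclooxygenases lay on opposite sides of 0. Ptgs1, the constitutive form, averaged -1.25 ± 0.43 after Cocktail and -1.75 ± 0.53 after Scrambled, a difference of 0.50 (interval -0.46 to 1.47). Ptgs2, the inducible form, averaged -4.26 ± 1.33 and -3.75 ± 1.02, a difference of -0.51 (interval -2.01 to 0.99). The same fillings of gaps, in the same order, gave -1.41 and -1.48 for Ptgs2 and 0.24 and 0.25 for Ptgs1.

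The immediate-early genes Fos and Jun, whose products form the AP-1 transcription factor, did not pass. Fos averaged -0.99 ± 0.70 (SD, n = 4) in Cocktail rats, against -0.82 ± 1.19 (SD, n = 5) in Scrambled rats, a difference of -0.17 (interval -1.75 to 1.41). Jun averaged -1.45 ± 0.52 and -1.08 ± 0.61 in the same groups, a difference of -0.38 (interval -1.87 to 1.11).

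Of the general cellular genes, EiF4e encodes the factor that binds the cap of messenger RNAs at the start of translation. It was at 2.39, 2.39, 2.56 and 1.75 in Cocktail rats 1701, 4607, 4612 and 4614, and at 2.60, 2.42, 4.08, 2.77 and 2.69 in Scrambled rats 1700, 4610, 4614, 4615 and 4618. All 4 Cocktail rats lay below the Scrambled mean, and Cocktail 4612 overlapped Scrambled 4610. The difference of -0.64, or 1.56-fold lower, had an interval from -1.49 to 0.21 (limma, adjusted p = 0.631) and was -0.35 without Scrambled 4614, the highest rat, and -0.17 without both sets of that number. Actb, a cytoskeletal gene often used as a reference, averaged 7.30 ± 0.32 (SD, n = 4) in Cocktail rats, against 7.59 ± 0.68 (SD, n = 5) in Scrambled rats, a difference of -0.29 (interval -1.19 to 0.61). The deposited values are relative to a constant per section. That constant minus the section's median Ct averaged -0.01 ± 0.06 (SD, n = 4) over Cocktail rats and -0.30 ± 0.40 (SD, n = 5) over Scrambled rats. This gap of 0.29 did not pass (exact permutation, adjusted p = 0.298). With every section centred on its own median Ct, the median difference over the 19 genes was -0.14 in place of 0.15.

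The response of WKY rats was set against the same contrast in SHR, with 5 Cocktail and 2 Scrambled rats there, in one model. Limma called 0 of 19 genes (0%) for the difference between the responses, and 2 had an unadjusted p under 0.05. These were Il1b, with a log2 difference of -2.43 in SHR and 2.52 in WKY, and Ptgs2, with -4.04 in SHR and -0.51 in WKY, each with an adjusted p of 0.298 for the difference. In SHR, only Scrambled rat 4600 had a Ptgs2 value, so that 4 Cocktail rats stood against 1 rat assumed to vary like the others, and Il1b had a value in 4 Cocktail and 2 Scrambled rats. Of these 2, Scrambled 4600 was at -0.04 for Il1b. Scrambled 4604 was at -5.42, within the range of the SHR Cocktail rats (-6.22 to -3.78). For Agtr1a, the difference was above 0 in both strains, at 2.41 in SHR and 1.13 in WKY, and the gap of 1.29 had an interval from -0.62 to 3.19.

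Single sections of a rat varied more than the rat means of a group. Averaging sections by itself lowers the spread of rat means, so this does not set variation within rats against variation between them. The pooled SD between sections of a rat had a median over 18 genes of 1.48 in the Cocktail group (range 0.806 to 3.40) and 1.24 in the Scrambled group (range 0.583 to 3.06). The SD between rat means had medians of 0.656 and 0.866. The section SD exceeded the rat SD for 18 of 18 genes after Cocktail and for 15 of 18 after Scrambled. Il1a had one of the widest spreads. Its 26 Cocktail sections ran from -8.10 through a median of -3.38 to 1.25, and its 15 Scrambled sections from -9.35 through -5.04 to -1.02. Nearly that whole range recurred inside single rats, since the 9 sections of Cocktail 4607 alone lay between -7.83 and 0.56. Alox5ap and Ptgs1 had the smallest section SDs after Cocktail, at 0.843 and 0.806. In the Cocktail sections with a median Ct above 18 cycles, however, Alox5ap had no value and Ptgs1 had one only in WC10. After Scrambled, EiF4e and Ptgr1 were, with 0.583 and 0.599.

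**Figure D3:**
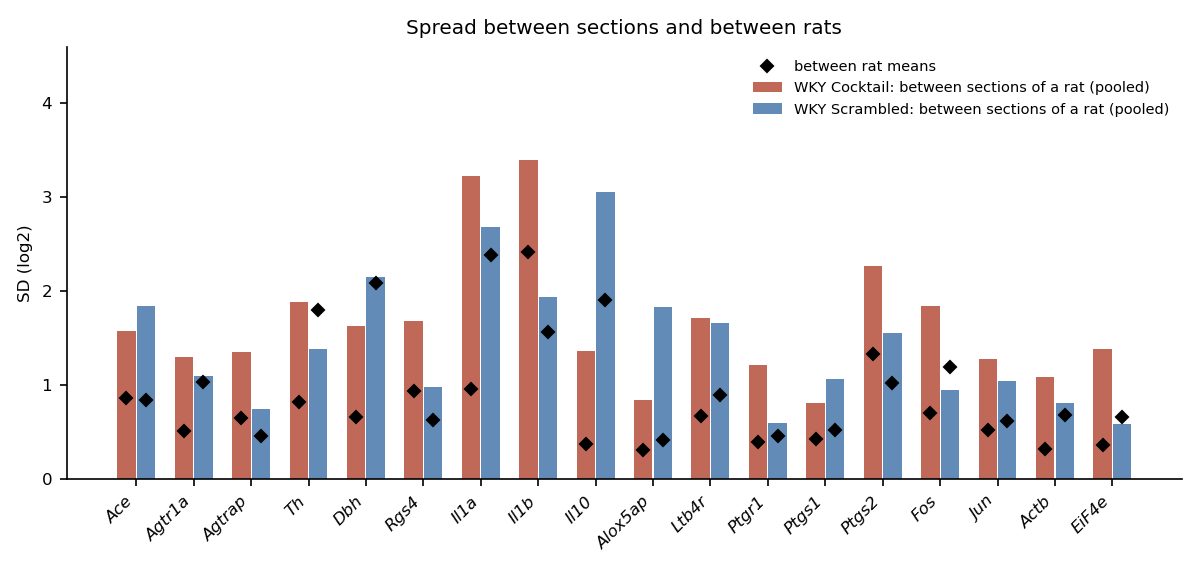
Standard deviation on the log2 scale (y axis) for 18 genes. Bars give the pooled SD between sections of a rat in WKY Cocktail (left of each pair) and WKY Scrambled (right), and diamonds the SD between rat means of the same group. Every Cocktail bar stands above its diamond, and Il1b (3.40) and Il1a (3.22) have the tallest bars. Each rat mean averages sections, which by itself lowers the diamonds.

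Whether the section spread itself differed was tested on the log2 SD of each rat. The SD was on average larger in Cocktail rats for all 18 reported genes, but 0 of 19 genes passed (0%; exact permutation, 0 with an unadjusted p under 0.05, smallest adjusted p = 0.339). As for levels, a single gene could not have passed this test alone. The smallest p values belonged to Fos, EiF4e and Rgs4. The pooled section SD of Fos was 1.84 after Cocktail and 0.950 after Scrambled, and that of EiF4e 1.39 and 0.583 (both adjusted p = 0.339, exact permutation). For Rgs4 it was 1.69 after Cocktail and 0.981 after Scrambled (exact permutation, adjusted p = 0.339), and the 2 Rgs4 sections of Scrambled 4614 were both at 2.84. Scrambled rats had fewer sections, and the logarithm of an SD from few values runs low. Sections with a median Ct above 18 cycles were also unevenly placed, in every Cocktail rat but only in Scrambled rats 1700 and 4610. The pooled section SD weights rats by their sections. It was larger in the Cocktail group for 13 genes and in the Scrambled group for 5. Among these 5 were Il10 (1.37 after Cocktail, 3.06 after Scrambled) and Alox5ap (0.843 and 1.83). Of the sections with a median Ct above 18 cycles, Alox5ap had a value in WSc01 and WSc05 but in no Cocktail section. With the bias of few sections removed, an alternative chosen after seeing the data, the SD was larger in Cocktail rats for 16 of 18 genes (smallest adjusted p = 0.694, exact permutation).

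Some sections were near copies of one another and others stood far out. The root mean square difference between 2 sections of one rat had a median of 2.17 over 82 Cocktail pairs and 2.04 over 17 Scrambled pairs, against 2.31 for 762 pairs from different rats. The closest pairs were WC11 and WC12 of Cocktail 4607 at 0.325 and the 2 sections of Scrambled 4614 at 0.372. In the test of levels, both pairs entered only through their rat's mean. In the test of section spread, the pair of Scrambled 4614 gave that rat's SD. Sections of different rats also came close, at 0.560 for WC08 of Cocktail 4607 with WC24 of Cocktail 4614. Across treatments, WC24 and WSc15 of Scrambled 4618 were at 0.592. The farthest values gathered in few sections. WC23 of Cocktail 4614 had the highest Th (9.55), Rgs4 (7.99), Ltb4r (8.12), Actb (10.89) and Ptgr1 (2.90) of all 42 sections and the lowest Ace (-3.05). WSc01 of Scrambled 1700 was lowest for Il10 (-10.37) and Alox5ap (-6.90) and had the highest Scrambled Ltb4r (5.04) and Actb (9.88). Both had a late median Ct, at 21.4 and 19.5 cycles.

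Missing values made up 39 of 513 values (7.60%) in Cocktail sections and 13 of 285 (4.56%) in Scrambled sections. Ace, Actb, Agtrap, EiF4e, Jun, Rgs4 and Th had a value in every section. Il1b was missing in 14 of 27 Cocktail and 6 of 15 Scrambled sections, Ptgs2 in 6 and 2, Alox5ap in 5 and 1, and Ptgs1 in 4 and 2. A gap can be a transcript not reached within 30 cycles or a failed reaction, and the tables do not separate these. For the 4 genes missing in over 10% of sections, the share per rat was compared. Alox5ap was missing in 18.3% ± 3.51 (SD, n = 4) of the sections of Cocktail rats and 5.00% ± 11.2 (SD, n = 5) of those of Scrambled rats (exact permutation p = 0.0476, adjusted p = 0.190). Ptgs2 was at 24.7% ± 14.2 and 10.0% ± 13.7 (exact permutation, adjusted p = 0.254), and Ptgs1 at 15.5% ± 3.76 and 10.0% ± 13.7 (exact permutation, adjusted p = 0.571). Of these 4 genes, 0 passed (0%) and 1 had an unadjusted p under 0.05.

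Most gaps lay in sections with a late median Ct, which was taken as the measure of RNA input. In 8 sections the median was above 18 cycles, 5 after Cocktail and 3 after Scrambled. They held 38 of the 52 gaps, that is 25.0% of their values, against 2.17% in the 34 other sections. All 6 Alox5ap gaps and all 6 Ptgs1 gaps fell in them, whereas 12 of the 20 Il1b gaps were in the other sections. Every Cocktail rat held a late section, but of the Scrambled rats only 1700 and 4610 did. This bears on the Alox5ap and Ptgs1 shares per rat. Median Ct per rat averaged 15.3 ± 1.06 (SD, n = 4) in Cocktail rats, against 15.4 ± 1.73 (SD, n = 5) in Scrambled rats (exact permutation, adjusted p = 0.905). The number of genes with a value per section averaged 17.5 ± 0.32 and 18.3 ± 0.71 in the same groups (exact permutation, adjusted p = 0.298). The part of input in the differences above was not tested beyond the fit without the 8 late sections, which also called 0 genes.

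**Figure D4:**
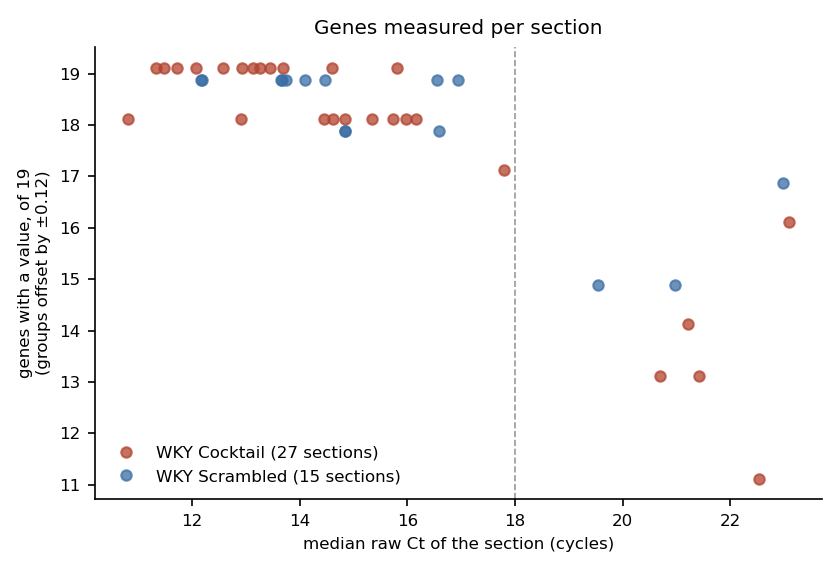
Genes with a value, of 19 (y axis, the groups offset by 0.12 for sight), against the section's median raw Ct in cycles (x axis) for 27 Cocktail and 15 Scrambled sections; the dashed line is at 18 cycles. The 8 sections right of the line, 5 Cocktail and 3 Scrambled, have between 11 and 17 genes with a value.

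Covariation was described from the deviations of sections from their rat's mean, for the 16 reported genes with a value in at least 80% of the sections of each group, which left out Il1b and Ptgs2. Sections share the rat and all genes of a section share its constant, so the coefficients describe these sections and carry no p. The median Pearson r over 120 gene pairs was 0.09 in the Cocktail group (27 sections) and -0.06 in the Scrambled group (15 sections). Without normalization the medians were 0.85 and 0.89. After Cocktail, 24 pairs had an r over 0.5, and after Scrambled 30. They shared 16 pairs, which is 66.7% of the Cocktail pairs and 53.3% of the Scrambled pairs. Under -0.5 there were 17 pairs in each group, with 6 in common, and 0 pairs lay beyond 0.5 with opposite signs in the groups.

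The 5 highest Cocktail pairs were Agtrap with Alox5ap (r = 0.85, 22 sections), Ltb4r with Ptgr1 (0.82), EiF4e with Il10 (0.79), Ltb4r with Th (0.78) and Rgs4 with Th (0.77). In Scrambled sections these pairs were at 0.59, 0.66, 0.67, 0.59 and 0.68. Leaving out the late sections gave 0.92 for Agtrap with Alox5ap, 0.59 for Ltb4r with Ptgr1 and 0.79 for EiF4e with Il10 after Cocktail. The Alox5ap pair held no late section before, so only the rat means of Agtrap moved. Each of the Th pairs, in which WC23 was the extreme section, was then at 0.34. The 5 lowest Cocktail pairs were Agtrap with Ltb4r (-0.72), Agtr1a with Ptgr1 (-0.69), Il10 with Ptgs1 (-0.68), Il1a with Ptgs1 (-0.68) and EiF4e with Ptgs1 (-0.63), and without late sections they were at -0.42, -0.26, -0.78, -0.69 and -0.71 in this order. In Scrambled sections, Il10 with Ptgs1 was at -0.03 and Il1a with Ptgs1 at 0.23. The difference between the groups was not tested.

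The 5 highest Scrambled pairs all held Alox5ap or Jun. They were Alox5ap with Fos (r = 0.94, 13 sections), Ace with Alox5ap (0.91), Alox5ap with Jun (0.89), Ace with Jun (0.86) and Il10 with Jun (0.86). In Cocktail sections these pairs were at 0.57, 0.36, -0.01, 0.58 and 0.77. Alox5ap had no value in the late Cocktail sections, so its Cocktail pairs rest on the other 22 sections. Without the 3 late Scrambled sections, among them WSc01, the 5 pairs were at 0.54, -0.45, 0.01, 0.09 and 0.64 in the same order, so the values of Ace with Alox5ap, Alox5ap with Jun and Ace with Jun rest on late sections. The lowest Scrambled pairs were Ace with Ltb4r (-0.79), Actb with Il10 (-0.76), Ltb4r with Ptgs1 (-0.73), Agtr1a with EiF4e (-0.73) and Actb with Jun (-0.68). Without late sections they were at -0.85, -0.80, -0.77, -0.66 and -0.48. Dbh and Th, which mark the same noradrenergic neurons, had an r of 0.65 over 25 Cocktail and 0.64 over 15 Scrambled sections. This pair ranked 14 in Cocktail and 20 in Scrambled among 120 pairs, with Spearman coefficients of 0.68 and 0.38. Without late sections its r was 0.78 and 0.91.

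**Figure D5:**
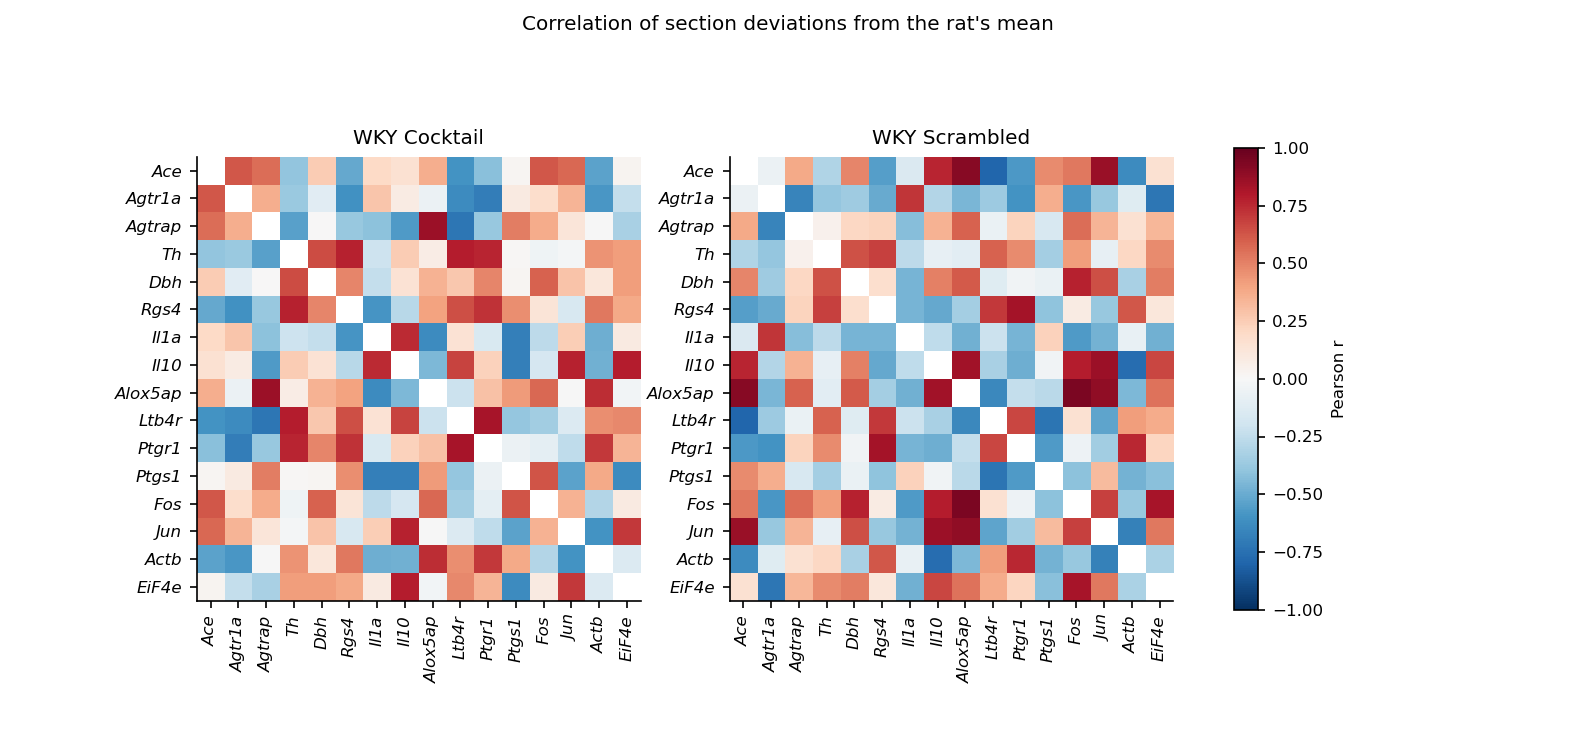
Pearson r between genes (colour, -1 to 1) of the deviations of sections from their rat's mean, for 16 genes on both axes, in WKY Cocktail (left) and WKY Scrambled (right). The block of high r around Alox5ap, Fos, Jun and Il10 in Scrambled reaches 0.94 for Alox5ap with Fos. It rests in part on the 3 late sections. Without them Alox5ap with Fos is at 0.54, Alox5ap with Il10 at -0.57, Fos with Il10 at -0.09 and Fos with Jun at 0.20. Th with Rgs4 is at 0.77 in Cocktail and 0.68 in Scrambled, but at 0.34 and 0.47 without late sections.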

How the data were processed

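RNA of 19 genes was measured in NTS sections from WKY and SHR rats on BioMark chips with EvaGreen, and Ct was called with the Fluidigm software, per the labels' protocols. The authors deposited normalised values on a log2 scale (minus ΔCt) and raw Ct, treated here as a score. Each normalised value plus the raw Ct of its section was constant over genes (within 1e-06 cycles). The 109 normalised sections each matched raw values of the same rat, although in 39 of the 42 sections compared under another section name, which leaves rat means as they are. How the constant was chosen and which chip held which section are not given in the sources used here, so a run effect was not tested. All 19 identifiers matched a RefSeq gene table (GRCr8). No values are given for 1 of these genes, which entered the fits, the counts over 19 genes and the distances.

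Section values were averaged per rat and treatment, without missing values. The 20 rat profiles of 6 groups were fitted with limma 3.58.1 (R 4.3.3), sharing 1 spread, two-sided, with Benjamini-Hochberg adjustment over 19 genes at 0.05. Spread, missing shares and section quality were compared with two-sided exact permutation tests over rats (126 assignments for 4 against 5). Intervals are at 95%. Precision is limited by the number of rats, and folds assume a doubling per cycle. All genes are described; per-rat values and full statistics are given for the 5 with the smallest p, and the 3 with the smallest p for spread and missing values. Alternatives changed the normalization, averaging, weighting, missing values, section filter, pooled groups and test, and left out each rat. The code was tested on simulated data. The genes, lists and tests were chosen with earlier results of these data known. Figures were drawn with matplotlib 3.10.9.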

Additional observations from a re-analysis of the deposited data

Results flagged for a closer look

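In 77 groups of 4 or 5 rats (mostly levels and section SDs of genes), 4 had 1 rat standing apart from the others by Dixon's criterion, and chance flags about 1 in 20. Within Cocktail, the section SD of Il10 in rat 1701 (0.580) lay below those of the other 3 rats, and that of Ltb4r in rat 4614 (3.12) lay above them. Within Scrambled, EiF4e in rat 4614 (4.08) lay above the other 4 rats, and so did the section SD of Il10 in rat 1700 (5.37).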

How the results depend on the processing

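Over 24 other settings, limma or the exact test called 0 of 19 genes, with a smallest adjusted p from 0.310 to 0.973. At most 2 genes were under 0.05 before adjustment, and at least 1 was in 11 settings. With values centred on Actb and EiF4e, the 2 were Agtr1a (limma, p = 0.0163) and Ace (limma, p = 0.0440). Ace, Agtr1a, Dbh, EiF4e, Il1a, Il1b and Ptgs1 kept their direction in each setting that gave a value. The other 11 genes, all uncalled, changed sign in at least 1, and the cause was not tested. With medians over sections, Agtrap was at 0.21, Fos at 0.26 and Il10 at -0.0650. With rats weighted by sections, Fos was at 0.11 and Rgs4 at -0.0115, and with the rat as a random block Fos was at 0.0226. With raw Ct centred on the section median, Rgs4 was at -0.0779. Centred on Actb and EiF4e, which raised the median difference to 0.68, Actb was at 0.17, Agtrap at 0.31, Alox5ap at 0.33, Fos at 0.28, Jun at 0.0887, Ltb4r at 0.0868 and Ptgr1 at 0.0303. With no normalization, Alox5ap was at 0.76 and Ptgs2 at 0.0641. With missing values at the lowest value, Fos was at 0.0134 and Il10 at -0.76, and at 30 cycles 0.19 and -0.60. Without late sections, Fos was at 0.18 and Il10 at -0.14, and Il10 was at -0.45 with median centring as well (chosen after seeing the data). Without both sets numbered 4614, Agtrap was at 0.0753, Alox5ap at 0.0193, Fos at 0.0310, Jun at 0.0631 and Rgs4 at -0.13. In that setting Il10, which changed sign in others, was at 1.12. Among genes that kept their direction throughout, Ptgs1 was then at 0.0781, Dbh at 1.62, Ace at 1.01, Il1a at 0.59 and Il1b at 1.35. Leaving out 1 rat at a time gave Fos -0.56 to 0.17, Agtrap -0.31 to 0.16, Rgs4 -0.22 to 0.45, Il10 -0.17 to 0.99, Th -0.0854 to 1.13 and the median Ct difference -0.747 to 0.438. The counts of 0 for the strain difference, section spread and missing shares stayed at 0 in their alternatives. The median r without normalization was 0.853 after Cocktail and 0.889 after Scrambled. Il1b has no value under the filter for genes present in 80% of sections. No paired analysis was possible because the groups share only the animal number 4614, and section numbers only name sections.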
